A study of Mus musculus with 6 samples.

Results

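The vascular endothelial growth factor (VEGF) and angiopoietin genes were examined in livers of mice with CT26 tumors. The set holds 10 of the 20140 listed genes, which were found by symbol in the raw count table. They are the VEGF ligands Vegfa, Vegfb and Vegfc, the VEGF receptors Flt1, Kdr and Flt4, the angiopoietins Angpt1 and Angpt2, and the Tie receptors Tek and Tie1. All 10 passed the filter on low counts, which left 16370 genes. Polyadenylated RNA of whole liver was sequenced on day 21 from 2 livers in each of 3 groups. Sham mice, whose labels read control and PBS, carried no tumor cells. In the intra-C group, CT26 cells, a mouse colorectal carcinoma line, were placed in the cecum, which is the premetastatic niche (PMN) model of the study. In the intra-S group they were injected into the spleen, which is its metastasis model. The labels give only the short names, and these meanings were taken from the study's description of its BALB/c models, which gives no genotype or allele apart from the strain for these mice. The state of the liver thus cannot be told apart from where the tumor cells were placed. No label says whether the livers of a group came from separate experiments, so the p-values measure only the spread between these livers.

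VEGFs are secreted ligands that bind receptor tyrosine kinases, which lie mainly on endothelial cells. VEGF-A acts on VEGFR2 (Kdr) to drive endothelial growth, survival and permeability, whereas VEGFR1 (Flt1) binds VEGF-A and VEGF-B tightly and can act as a decoy. VEGF-C acts mainly on VEGFR3 (Flt4), which is known for lymphatic growth and is also made by the fenestrated sinusoidal endothelium of the liver. Angiopoietin-1 activates TIE2 (Tek) and keeps vessels quiet, angiopoietin-2 can oppose it depending on context, and TIE1 is a related receptor that modulates TIE2. In the healthy liver, hepatocyte VEGF-A helps to maintain the sinusoids.

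Library totals ranged from 32838321 to 43368309 counts, and 3 counts, the limit that an observed 0 allows, equal 0.0679 to 0.0928 CPM depending on the liver. CPM is the count of a gene per 1e6 counts of its library, here with library totals scaled by edgeR's TMM factors. The livers of the intra-S group stood further apart than those of the other groups. Among 12680 genes with a mean of at least 1 CPM, 21.13% differed by more than 1 on the log2 scale between the intra-S livers, compared with 5.91% in intra-C and 3.29% in sham livers. Hepatocyte markers summed to between 115378 and 164737 TPM (transcript abundance scaled by gene length and library total) in every liver, as the tissue label implies. Because the tissue is bulk, fewer cells of a type and less RNA per cell cannot be told apart.

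All 5 receptors were above both sham livers in all 4 tumor livers, and so were Angpt1 and Vegfc. In intra-C livers, Tek, Tie1 and Kdr passed the test (adjusted p under 0.05 in edgeR's quasi-likelihood fit over all 6 livers), all higher than in sham livers. In intra-S livers, only Flt4 passed it, also higher. These were 3 and 1 of the 10 genes, compared with 4.92% and 6.78% of all genes tested that were called higher in intra-C and intra-S livers. None was called lower, beside 2.38% and 3.95% of all genes. The 7 genes with all tumor livers above sham compare with 21.8% of all genes. With CPM on plain library totals, or with TPM, they were 5, without Kdr and Vegfc, beside 14.4% and 14.9% of all genes. The median log2 fold change of the 10 genes was 1.05 in intra-C and 0.79 in intra-S livers, and that of the 5 receptors was 1.37 and 1.19, while that of all genes was 0.01 and 0.04.

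**Figure D1:**
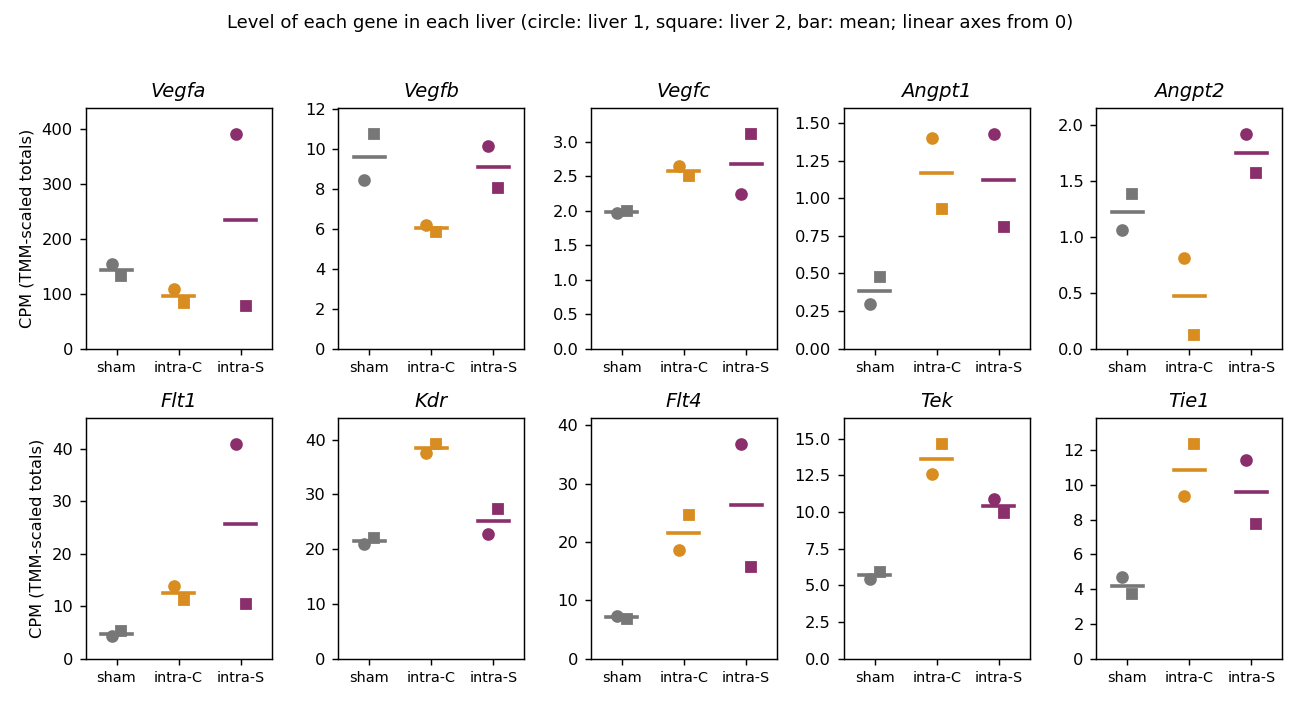
CPM on TMM-scaled totals of each gene in each liver, on linear axes that start at 0 and differ between panels. Circles are liver 1 and squares liver 2 of a group, and bars are means of 2 livers. The receptors in the lower row lie above both sham livers in all 4 tumor livers, and liver 1 of intra-S stands apart for Vegfa, Flt1 and Flt4.

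Tek (chr4:94739086-94874976, plus strand, GRCm38.p6), which encodes the angiopoietin receptor TIE2, was at 5.44 and 5.93 CPM in sham livers, 12.6 and 14.6 CPM in intra-C livers and 10.9 and 9.96 CPM in intra-S livers. The 3 groups did not overlap, with intra-C highest, but the difference between the tumor groups did not pass edgeR's test (adjusted p = 0.466). The log2 fold change was 1.26 ± 0.22 (SE, n = 2 per group) in intra-C livers (edgeR adjusted p = 0.0286). It was 0.87 ± 0.22 in intra-S livers, just short of the threshold (edgeR adjusted p = 0.0543). Tie1 (chr4:118471191-118489849, minus strand), the partner receptor, had 4.68 and 3.73 CPM in sham, 9.37 and 12.3 CPM in intra-C and 11.4 and 7.75 CPM in intra-S livers. Both tumor groups were separate from sham but overlapped each other. Its log2 fold change was 1.37 ± 0.31 in intra-C livers (edgeR adjusted p = 0.0490) and 1.19 ± 0.31 in intra-S livers (edgeR adjusted p = 0.0568). The intra-C calls held in 11 of 18 alternative settings for Tek and 10 for Tie1. On plain library totals both were lost (edgeR adjusted p = 0.0517 and 0.0700), and so they were with limma on TPM. Tek and Tie1 stayed near equal per length, with a ratio of TPM values between 0.751 and 1.25 in every liver.

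Kdr (chr5:75932827-75979072, minus strand), which encodes VEGFR2, was at 20.9 and 22.05 CPM in sham livers and at 37.6 and 39.2 CPM in intra-C livers. The intra-S livers, at 22.7 and 27.4 CPM, lay between these groups and close to sham. The log2 fold change was 0.84 ± 0.19 in intra-C livers (edgeR adjusted p = 0.0492) and 0.22 ± 0.19 in intra-S livers (edgeR adjusted p = 0.459, 95% interval -0.22 to 0.67). The call in intra-C held in 7 of 18 alternative settings and was lost with no filter (adjusted p = 0.0563), upper-quartile factors (0.0606) or DESeq2 size factors in edgeR (0.0502). On plain library totals the intra-S value turned to -0.04, and on TPM it was also below 0. Between the tumor groups, Kdr was lower in intra-S by a log2 fold change of -0.61 ± 0.19, at an unadjusted p of 0.0151 that did not pass edgeR's adjustment (adjusted p = 0.305).

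Flt4 (chr11:49609679-49652739, plus strand), which encodes VEGFR3, was at 7.37 and 6.81 CPM in sham livers, 18.7 and 24.6 CPM in intra-C livers and 36.8 and 15.8 CPM in intra-S livers. Every tumor liver was above both sham livers, but the intra-S livers lay on either side of the intra-C livers. The log2 fold change was 1.89 ± 0.41 in intra-S livers (edgeR adjusted p = 0.0376) and 1.61 ± 0.41 in intra-C livers (edgeR adjusted p = 0.0656). Flt1 (chr5:147561604-147726438, minus strand), which encodes VEGFR1, had the widest range among the receptors. It was at 4.39 and 5.23 CPM in sham, 13.9 and 11.1 CPM in intra-C, and 40.9 and 10.5 CPM in intra-S livers. Liver 1 of intra-S thus held 3.90 times the level of liver 2, which was close to the intra-C livers. Neither log2 fold change passed the test, at 2.42 ± 0.60 in intra-S (edgeR adjusted p = 0.0528) and 1.38 ± 0.59 in intra-C livers (edgeR adjusted p = 0.193). Gene counts sum over transcripts, so the soluble and the membrane form of Flt1 were not separated.

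The calls of the receptors moved with single libraries, as did those of all genes. With either intra-C or either sham liver left out, where the lone liver is assumed to vary like the other groups, none of the 10 genes was called in the comparison of intra-C with sham. Without intra-C liver 1 or 2 only 0.369% and 0.346% of all genes were called, and without either sham liver none was. In these fits the log2 fold change was between 1.17 and 1.36 for Tek, 1.18 and 1.55 for Tie1, and 0.81 and 0.88 for Kdr. With intra-S liver 1 or liver 2 left out, 6 and 7 of the 10 were called in that comparison, in either direction, beside 26.5% and 26.3% of all genes (7.30% with all livers). Flt4 in intra-S livers kept its call without intra-S liver 1, with a log2 fold change of 1.16 (adjusted p = 0.0129), or without liver 2, with 2.38 (adjusted p = 0.000387). It lost it without intra-C liver 1 or 2 or sham liver 1 or 2, although the log2 fold change stayed at 1.89, 1.91, 1.95 and 1.83. Flt1 passed in both of these fits, at 1.13 without intra-S liver 1 (adjusted p = 0.0205) and 3.09 without liver 2 (adjusted p = 0.000203). In the comparison of intra-S with sham, 4 of the 10 were called without intra-S liver 1 and 5 without liver 2, beside 16.5% and 32.7% of all genes (10.7% with all livers). None of the 10 was called there without intra-C liver 1 or 2, where 3.08% and 2.79% of all genes were called, or without either sham liver, where no gene was.

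**Figure D2:**
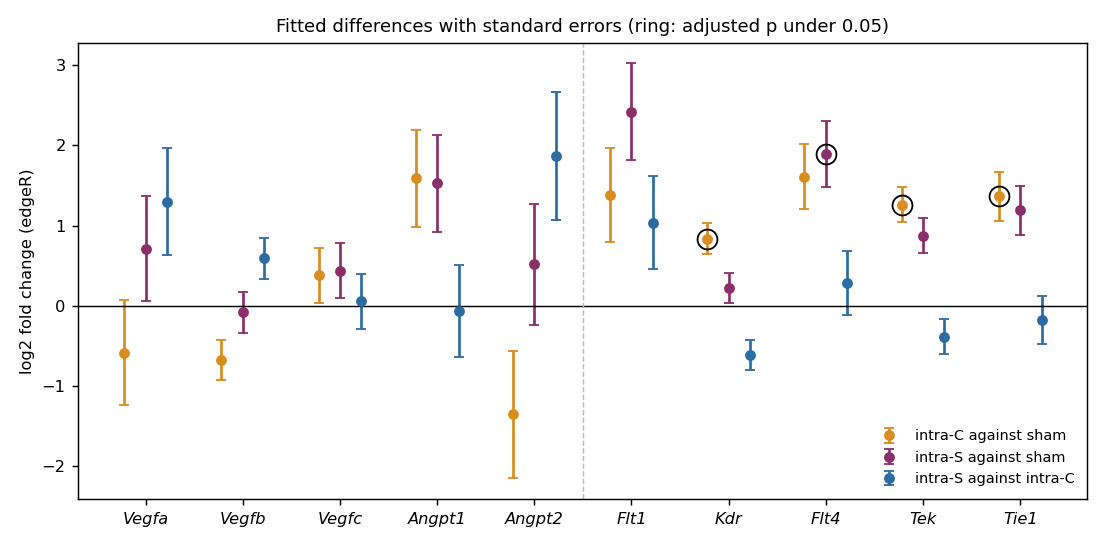
Log2 fold change of each gene with its standard error in the 3 comparisons, from edgeR's fit over 6 livers, with ligands to the left of the dashed line and receptors to the right. Rings mark an adjusted p under 0.05, which only Tek, Tie1 and Kdr in intra-C and Flt4 in intra-S reached, both against sham.

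The promoters of the 5 receptors are shown because factors of the ETS family, which are known to drive endothelial genes, were also measured in these livers. RefSeq promoters (GRCm38.p6, 250 bases before to 50 after a start) were given for 8 of the 10 genes, with 2 for Vegfa. Angpt1 and Angpt2 had no entry. Capitals mark the ETS core GGAAG on either strand (CTTCC on the strand shown), and matches that overlap were each counted. The sequences run 5′ to 3′ along the gene, for Tek at chr4:94739039-94739338 (plus strand), Tie1 at chr4:118489800-118490099 (minus strand), Kdr at chr5:75978406-75978705 (minus strand), Flt1 at chr5:147725962-147726261 (minus strand) and Flt4 at chr11:49609429-49609728 (plus strand).
Tek: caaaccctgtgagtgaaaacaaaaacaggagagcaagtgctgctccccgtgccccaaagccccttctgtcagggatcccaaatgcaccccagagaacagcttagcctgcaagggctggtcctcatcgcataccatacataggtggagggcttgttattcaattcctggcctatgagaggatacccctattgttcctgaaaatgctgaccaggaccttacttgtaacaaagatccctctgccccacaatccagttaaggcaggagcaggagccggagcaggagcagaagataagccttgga
Tie1: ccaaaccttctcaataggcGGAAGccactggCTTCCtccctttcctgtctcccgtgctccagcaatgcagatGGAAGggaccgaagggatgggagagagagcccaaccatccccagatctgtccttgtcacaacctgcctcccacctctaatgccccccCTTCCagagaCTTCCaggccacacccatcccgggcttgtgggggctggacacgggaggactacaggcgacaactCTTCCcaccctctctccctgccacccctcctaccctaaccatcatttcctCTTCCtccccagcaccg
Kdr: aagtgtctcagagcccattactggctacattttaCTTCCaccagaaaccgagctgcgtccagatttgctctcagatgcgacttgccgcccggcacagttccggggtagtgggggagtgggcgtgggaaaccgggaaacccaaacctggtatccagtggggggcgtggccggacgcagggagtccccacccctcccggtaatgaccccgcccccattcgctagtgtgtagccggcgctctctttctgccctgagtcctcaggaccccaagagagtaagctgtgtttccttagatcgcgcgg
Flt1: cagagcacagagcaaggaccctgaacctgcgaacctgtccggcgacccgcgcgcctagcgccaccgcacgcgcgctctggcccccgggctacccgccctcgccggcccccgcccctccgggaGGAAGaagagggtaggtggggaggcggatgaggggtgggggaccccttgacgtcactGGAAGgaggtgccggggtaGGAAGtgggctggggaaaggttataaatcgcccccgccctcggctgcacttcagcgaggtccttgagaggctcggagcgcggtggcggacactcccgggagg
Flt4: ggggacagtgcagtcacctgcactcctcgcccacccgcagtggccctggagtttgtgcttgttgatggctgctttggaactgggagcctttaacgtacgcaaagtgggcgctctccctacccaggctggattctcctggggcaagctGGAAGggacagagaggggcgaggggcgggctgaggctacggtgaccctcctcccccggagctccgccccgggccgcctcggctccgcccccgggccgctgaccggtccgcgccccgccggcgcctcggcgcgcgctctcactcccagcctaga

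The Tie1 promoter held 7 matches, a number that only 0.234% of the 32851 promoters of the same length reached. The Tek promoter held 0, Kdr and Flt4 held 1 each and Flt1 held 3. At least 1 match was found in 71.4% of all promoters and at least 3 in 16.5%, so that the receptors other than Tie1 were within the common range. Of the other motifs searched on both strands, the GATA motif AGATAA (11.2% of promoters) was found once in the Tek promoter and once in the first Vegfa promoter, and the FOX motif GTAAACA (3.65% of promoters) in none of the 9. The core ACGTG of hypoxia response elements (19.6% of promoters) was found once, in the second Vegfa promoter. A match is a description of letters in the window and shows no binding.

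Vegfa (chr17:46016993-46032377, minus strand) was the most abundant of the 10 genes in every liver. It was at 154 and 132 CPM in sham livers, 109 and 82.1 CPM in intra-C livers, and 391 and 77.9 CPM in intra-S livers. Both intra-C livers lay below both sham livers, whereas intra-S liver 1 was the highest of all livers and liver 2 the lowest, 5.02 times apart. The log2 fold change was therefore poorly determined, at -0.58 ± 0.66 in intra-C (edgeR adjusted p = 0.614) and 0.71 ± 0.66 in intra-S livers (edgeR adjusted p = 0.504). Without intra-S liver 1 the latter turned to -0.87, and without liver 2 it was 1.45, so that its direction depended on which single intra-S liver was kept. The error of the intra-C value was smaller without the intra-S livers, at -0.58 ± 0.17, and Vegfa was called lower with only the intra-C and sham livers in the fit (edgeR adjusted p = 0.0455), where 30.5% of all genes were called. Leaving out intra-S liver 1 or 2 alone gave adjusted p values of 0.0484 and 0.0493.

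Vegfb (chr19:6982472-6987651, minus strand), a ligand of VEGFR1, was at 8.45 and 10.8 CPM in sham, 6.19 and 5.85 CPM in intra-C and 10.1 and 8.02 CPM in intra-S livers. The intra-C livers were below all others, but the log2 fold change of -0.67 ± 0.25 did not pass the test (edgeR adjusted p = 0.154). Vegfc (chr8:54077532-54186454, plus strand), the ligand of VEGFR3, was at 1.97 and 1.99 CPM in sham, 2.65 and 2.51 CPM in intra-C and 2.25 and 3.12 CPM in intra-S livers. The tumor livers were above sham by small steps, with log2 fold changes of 0.38 ± 0.34 and 0.44 ± 0.34 (edgeR adjusted p = 0.523 and 0.435). Of the further VEGF family ligands, Vegfd, which also binds VEGFR3, was between 0.408 and 1.89 CPM in the 6 livers with no call. Pgf, placental growth factor and a ligand of VEGFR1, was between 0 and 0.294 CPM and fell under the filter.

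Angpt1 (chr15:42424667-42676977, minus strand) was the least abundant of the 10 genes in sham livers, with 12 and 21 counts or 0.296 and 0.475 CPM. It was at 1.40 and 0.928 CPM in intra-C and 1.43 and 0.810 CPM in intra-S livers, above both sham livers in all 4. Neither log2 fold change passed the test, at 1.59 ± 0.60 (edgeR adjusted p = 0.154) and 1.52 ± 0.60 (edgeR adjusted p = 0.148). An antisense gene, Gm17473, shares 737 exonic bases with Angpt1 on the opposite strand, and whether the counting used strand is not given in the sources used here, so reads of the pair may not be separated.

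Angpt2 (chr8:18690263-18741562, minus strand) was at 1.06 and 1.38 CPM in sham livers. The intra-C livers, at 0.815 and 0.124 CPM, were below both sham livers, and the intra-S livers, at 1.92 and 1.57 CPM, above both. The low value of intra-C liver 2 rested on 4 counts, which an exact Poisson interval places between 0.0337 and 0.317 CPM for counting error only. The log2 fold change was -1.35 ± 0.79 in intra-C (edgeR adjusted p = 0.327) and 0.52 ± 0.76 in intra-S livers (edgeR adjusted p = 0.686). The difference between the tumor groups was 1.87 ± 0.80 and also did not pass (edgeR adjusted p = 0.380). It was 3.78 without intra-C liver 1 and 1.08 without intra-C liver 2, and the value of intra-C against sham was -3.27 and -0.56 in these fits. In TPM the intra-S livers, at 0.956 and 0.835, overlapped the sham livers, at 0.670 and 0.871.

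Levels of different genes were compared on TPM, which accounts for length. In sham livers the order was Vegfa (77.1 ± 8.56 TPM, SD, n = 2), Vegfb (16.8 ± 2.82) and Kdr (6.27 ± 0.227), each separate from the next. Flt4, Tek, Tie1 and Vegfc followed between 2.73 and 2.37 TPM with overlap between neighbours, then Flt1 (0.785 ± 0.0960) and Angpt2 (0.770 ± 0.142), and last Angpt1 (0.197 ± 0.0645). In intra-C livers Kdr (9.86 ± 0.759) was second to Vegfa (44.9 ± 6.83) and just above Vegfb (9.26 ± 0.0581). In intra-S livers the mean of Flt4 (8.14 ± 4.26) was above that of Kdr (5.99 ± 1.08), but these overlapped, with Flt4 at 11.1 and 5.12 TPM and Kdr at 5.23 and 6.75 TPM.

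Ratios of ligands and receptors were formed within each liver. Angpt2 exceeded Angpt1 in sham livers, with TPM ratios of 4.43 and 3.59. The ratio was 0.720 and 0.165 in intra-C livers and 1.67 and 2.40 in intra-S livers, so that no group overlapped another. The counts behind these ratios were between 4 and 66, and the exact 95% interval of a single liver ran from 2.16 to 6.21 in sham liver 2 and from 1.55 to 3.77 in intra-S liver 2, which overlap. The ratio of Flt1 to Kdr was 0.117 and 0.133 in sham, 0.207 and 0.159 in intra-C, and 1.01 and 0.214 in intra-S livers. Again no group overlapped another, but the tumor groups were apart only by 0.207 against 0.214. In intra-S liver 1 both receptors were therefore near equal per length, while Kdr was far ahead in the other 5 livers. Vegfa per summed Flt1, Kdr and Flt4 was 8.59 and 7.17 in sham livers, 2.87 and 1.94 in intra-C livers, and 7.66 and 2.65 in intra-S livers. It was lower in both intra-C livers and in intra-S liver 2 than in either sham liver. With 2 livers per group no permutation of labels reaches the threshold, so these ratios are given as values. How often ratios of other genes separate the groups was not counted.

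**Figure D3:**
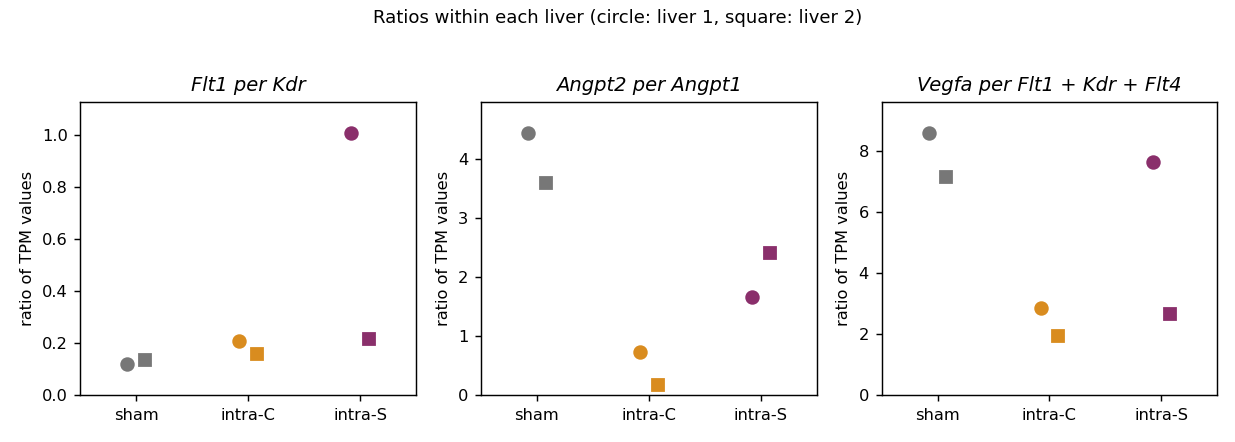
Ratios of TPM values within each liver, on linear axes from 0, with circles for liver 1 and squares for liver 2. Flt1 per Kdr is 1.01 in intra-S liver 1 and at most 0.214 elsewhere, and Angpt2 per Angpt1 is highest in sham (4.43 and 3.59) and lowest in intra-C livers (0.720 and 0.165).

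Between intra-S and intra-C livers none of the 10 genes was called, and 0% of all genes were called. At an unadjusted p under 0.05 edgeR gave 2193 genes, among them only Kdr of the 10, and DESeq2 called 234 genes higher and 272 lower, with none of the 10 among them. Without intra-S liver 2, 16.5% of all genes were called, and 4 of the 10, namely Vegfa, Flt1 and Flt4, which were higher in the remaining intra-S liver, and Kdr, which was lower. Without intra-S liver 1, none of the 10 was called, beside 0.313% of all genes, and Vegfa, Flt1 and Flt4 had log2 fold changes of -0.29, -0.25 and -0.45, below 0.

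Each member was also set against 8 other endothelial genes, Pecam1, Cdh5, Cldn5, Egfl7, Esam, Erg, Robo4 and Eng. Of these 8, 2 were called higher in intra-C and 4 in intra-S livers (4.92% and 6.78% of all genes), and 6 were above both sham livers in all 4 tumor livers (21.8% of all genes). Their mean log2 CPM was 2.43 and 2.53 in sham, 3.33 and 3.54 in intra-C, and 4.04 and 3.45 in intra-S livers. Relative to these genes, the intra-C livers differed from sham by 0.63 for Flt4, 0.41 for Flt1, 0.39 for Tie1, 0.29 for Tek and -0.12 for Kdr on the log2 scale. In intra-C livers none of the 5 receptors overlapped sham, and in intra-S livers only Tie1 did. On this scale 81.8% of all genes in intra-C and 82.2% in intra-S livers did not overlap sham, so that nothing about the receptors is read from it. With sinusoidal endothelial markers as the reference the intra-C values were 0.35, 0.13, 0.11, 0.01 and -0.40, in the same order of genes. Flt1, Tie1 and Tek then overlapped sham, whereas 86.2% of all genes did not. In intra-S livers Kdr was lower relative to the endothelial genes by -1.05, at 0.47 and 1.33 against 1.96 and 1.94 in sham livers. Tek was also lower than in sham livers by -0.40, whereas Flt1 and Flt4 were higher by 0.84 and 0.49. The value of Flt1 came mainly from intra-S liver 1, at 1.32, since liver 2 was at -0.05 beside -0.28 and -0.13 in sham livers, and with the sinusoidal reference liver 2 lay between the sham livers. Kdr, Tek and Tie1 were each lower in both intra-S livers than in both intra-C livers on this scale, by -0.93, -0.69 and -0.50, where 39.2% of all genes did not overlap between these groups. With the sinusoidal reference these were -0.60, -0.36 and -0.17, and the Tie1 values of the groups overlapped, whereas 40.6% of all genes did not. The ligands Vegfa, Vegfb and Vegfc were below sham relative to endothelial genes in both tumor groups by mean values. The differences were -1.55, -1.62 and -0.59 in intra-C and -0.98, -1.35 and -0.86 in intra-S livers. The reference itself was higher in tumor livers, and in both intra-C livers Vegfa and Vegfb were also below both sham livers on CPM. For Vegfa, intra-S liver 1 (4.57) lay between the sham livers (4.84 and 4.52).

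**Figure D4:**
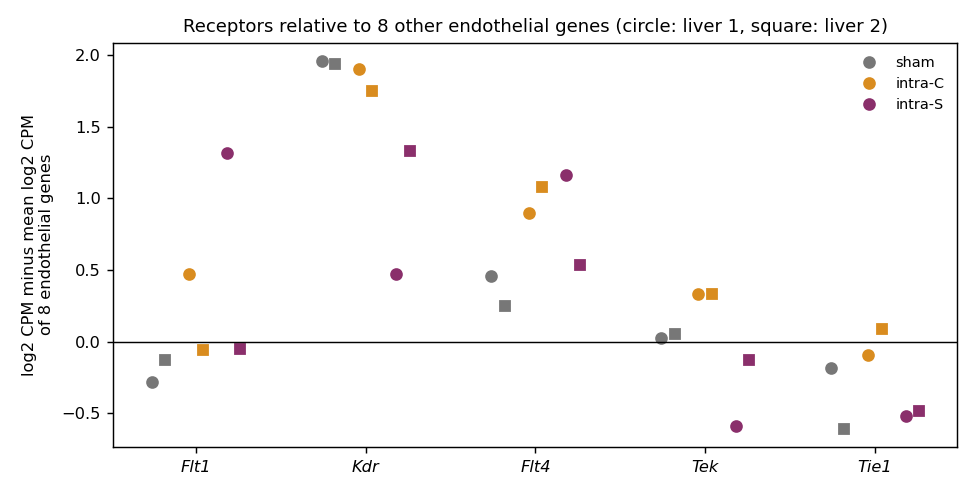
Log2 CPM of each receptor minus the mean log2 CPM of 8 other endothelial genes in the same liver, with circles for liver 1 and squares for liver 2. Kdr is lower in both intra-S livers (0.47 and 1.33) than in the other 4 livers, while Flt4 is higher in all 4 tumor livers than in sham livers. On this scale 81.8% of all genes in intra-C and 82.2% in intra-S livers do not overlap sham. Between the tumor groups 39.2% do not overlap, so nothing particular to the receptors is read from the figure.

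Endothelial marker lists were compared in the same livers, and their part in the results was not tested. All counts of called markers below stand beside 4.92% of all genes called higher in intra-C and 6.78% in intra-S livers. Of 13 pan-endothelial genes other than the receptors themselves, 3 were called higher in intra-C and 5 in intra-S livers. Their summed level was 62.3 to 63.9 TPM in sham, 101 to 115 TPM in intra-C and 96.6 to 136 TPM in intra-S livers. Pecam1 and Cdh5, which encode endothelial junction proteins, rose in both groups, by log2 fold changes of 2.25 and 2.03 in intra-C and 2.40 and 2.41 in intra-S livers. Of 13 sinusoidal markers tested, 5 were called higher in each group, with sums of 110 to 123 TPM in sham, 228 to 279 TPM in intra-C and 233 to 268 TPM in intra-S livers. Among them Lyve1, a hyaluronan receptor, was at 112 CPM in intra-S liver 1 but 14.2 CPM in liver 2, beside 1.70 and 0.951 CPM in sham livers. Of 12 vascular markers 1 and 4 were called higher, led by Thbd, thrombomodulin, with log2 fold changes of 4.39 and 4.52. Besides Flt4, 5 lymphatic markers were tested, of which 1 and 2 were called. Their sum was 38.0 to 38.5 TPM in sham, 30.5 to 40.7 TPM in intra-C, and 98.2 and 28.0 TPM in intra-S livers, and Mmrn1 was at 0 in both sham livers and between 0.962 and 1.89 CPM in the tumor livers.

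Markers of other cell types also differed between the groups, and their part was likewise not tested. All 12 neutrophil markers were called higher in both tumor groups, with sums of 10.3 to 14.6 TPM in sham, 904 to 2021 TPM in intra-C and 1386 to 3259 TPM in intra-S livers, and Mpo, Camp and Elane were at 0 in sham livers. Of 12 Kupffer cell and macrophage markers, 11 and 10 were called higher, with sums of 359 to 376, 1369 to 1779 and 1038 to 1805 TPM. Of 12 stellate and mural cell markers, 1 and 4 were called, with sums of 60.8 to 62.1, 77.1 to 83.9 and 99.1 to 114 TPM, and of 10 platelet markers 4 and 6, with sums of 3.82 to 3.85, 14.6 to 34.3 and 35.7 to 39.4 TPM. Hgf, a growth factor of stellate cells, rose by log2 fold changes of 2.55 and 1.82. Of 12 hepatocyte markers none was called in intra-C, and only Asgr2 was called, lower, in intra-S livers (-1.19). Of 10 erythroid markers 0 and 7 were called higher, with sums of 834 to 1496, 851 to 1271 and 3678 to 4830 TPM. Of 8 tested epithelial markers, which could come from CT26 or other epithelial cells, none was called in intra-C and Sox9 and Krt18 in intra-S livers. Their list summed to 300.1 to 363, 385 to 414 and 622 to 646 TPM, and Epcam was between 0.124 and 0.702 CPM in every liver.

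Among 12 co-receptors and regulators of the VEGF receptors, 4 were called higher in intra-C and 8 in intra-S livers (4.92% and 6.78% of all genes) and none lower, with medians of 1.24 and 1.56. Ptprb, the phosphatase VE-PTP that restrains TIE2 and VEGFR2, was at 29.7 and 27.0 CPM in sham, 71.0 and 74.0 CPM in intra-C and 61.5 and 40.8 CPM in intra-S livers. It rose in intra-C livers by a log2 fold change of 1.35 (edgeR adjusted p = 0.0311), close to the 1.26 of Tek, and was 0.85 higher in intra-S livers (edgeR adjusted p = 0.0738). Nrp1, a co-receptor for VEGF-A, was at 57.2 and 55.8 CPM in sham and 111 and 155 CPM in intra-C livers, with no call (edgeR adjusted p = 0.0630), and at 51.9 and 86.9 CPM in intra-S livers. Nrp2, a co-receptor for VEGF-C, rose in intra-S livers by 1.39 (edgeR adjusted p = 0.0403). Itgb3, an integrin chain, rose in both groups by 2.48 and 3.50, while Sema3a, a neuropilin ligand, and Gpc1, a heparan sulfate proteoglycan, rose in intra-S livers, by 3.87 and 2.23, and no gene was called between the tumor groups.

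The lists of ligand processing and further Tie or angiopoietin-like ligands held calls in the other direction. Of 8 tested genes, 2 were called lower in both groups (2.38% and 3.95% of all genes were called lower in intra-C and intra-S livers) and none higher, with medians of -0.48 and -0.65. They were the angiopoietin-like genes Angptl2, from 12.6 and 12.4 CPM in sham to 4.28 and 4.58 CPM in intra-C and 5.37 and 6.11 CPM in intra-S livers, and Angptl6, with log2 fold changes of -1.18 and -1.33. Svep1, an extracellular protein known to bind TIE1, was between 0.0985 and 0.226 CPM in sham and between 0.368 and 0.688 CPM in tumor livers, with no call. The 9 genes of this list in the count table summed to 1304 and 1232 TPM in sham and 694 and 713 TPM in intra-C livers. In intra-S livers they summed to 4023 TPM in liver 1 and 689 TPM in liver 2. Of 9 secreted inhibitors of angiogenesis, 1 and 4 were called higher and 1 lower in each group, beside the shares of all genes given above. Thbs1, thrombospondin-1, was at 0.148 and 0.589 CPM in sham, 5.04 and 6.50 CPM in intra-C and 24.8 and 12.0 CPM in intra-S livers, and rose in both groups (log2 fold changes of 3.94 and 5.62). Serpinf1, which encodes the antiangiogenic factor PEDF, fell from 471 and 449.9 CPM in sham to 205 and 181 CPM in intra-C and 162 and 184 CPM in intra-S livers.

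Genes that act downstream of the receptors were described in 2 lists. Of 25 VEGF receptor signaling genes, 1 was called higher in intra-C and 2 in intra-S livers, near the 4.92% and 6.78% of all genes, with medians of 0.11 and 0.33. They were Prkcb, a protein kinase C, in both groups (2.28 and 2.14), and the adapter Nck1 in intra-S livers (0.82). Of 19 tip cell or induced endothelial genes, 1 and 3 were called higher, beside the same shares of all genes. Rcan1, a calcineurin inhibitor and known VEGF target, rose in intra-C livers from 17.2 and 14.1 to 43.7 and 41.8 CPM. Esm1, endocan, was at 0.0493 and 0.0679 CPM in sham, 0.102 and 0.124 CPM in intra-C, and 1.46 and 4.10 CPM in intra-S livers, and rose in intra-S livers (edgeR adjusted p = 0.0147). Apln, the ligand apelin, was at 0 in all sham and intra-C livers and at 2.36 and 0.687 CPM in intra-S livers (edgeR adjusted p = 0.0426), and Cxcr4 rose in intra-S livers by 2.92. Dll4, the Notch ligand of tip cells, was between 1.24 and 4.43 CPM in the 6 livers with no call.

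Of 9 FOXO1, KLF and ETS factors, 1 was called higher in intra-C and 4 in intra-S livers (4.92% and 6.78% of all genes), with medians of 1.27 and 1.51. Ets1 was at 13.1 and 16.004 CPM in sham, 39.0 and 37.6 CPM in intra-C and 25.8 and 30.6 CPM in intra-S livers, and rose in both groups (1.40 and 0.95). The order of its groups on CPM, sham below intra-S below intra-C, was also that of Tek and Kdr. How many of all genes have this order was not counted, and a link between these genes was not tested. Fli1 and Erg, endothelial ETS factors, and Klf2, a flow-responsive factor, were called in intra-S livers, at 2.14, 1.48 and 1.81. Ets1 and Hgf are also among 7 genes that the study names for angiogenesis and endothelial inflammation, of which 6 were called higher in intra-C and 5 in intra-S livers. It is a list that the study drew from endothelial cells of another of its experiments.

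Hypoxia response genes, to which Vegfa belongs by function, were high in the liver where Vegfa was high. Of 20 tested, 1 was called higher in intra-C and 4 in intra-S livers (4.92% and 6.78% of all genes), with medians of 0.42 and 2.04, and their summed level was 1086 and 1091 TPM in sham, 1403 and 1399 TPM in intra-C, and 5135 and 1420 TPM in intra-S livers. Ndrg1, a stress-induced gene, was at 276 CPM in intra-S liver 1 and 13.2 CPM in liver 2, beside 2.71 and 3.17 CPM in sham livers. Aldoa, aldolase A, was at 526 and 178 CPM in the same livers. Ldha, lactate dehydrogenase A, rose in both groups, from 421 and 461 CPM in sham livers, by log2 fold changes of 1.38 and 2.03, without the same gap between the intra-S livers. The part of these genes in the level of Vegfa was not tested.

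**Figure D5:**
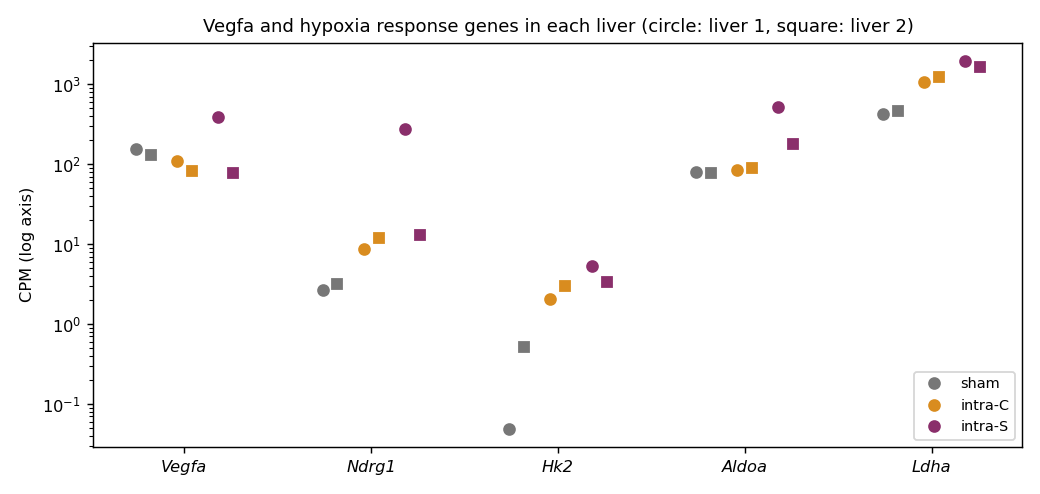
CPM on a log axis of Vegfa and of the 4 hypoxia response genes called in either tumor group, in each liver, with circles for liver 1 and squares for liver 2. Intra-S liver 1 is highest for Vegfa (391 CPM) and for Ndrg1 (276 CPM), whereas Vegfa in liver 2 (77.9 CPM) is below both sham livers.

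Among 12680 tested genes with a mean of at least 1 CPM, those most like each member over the 6 livers were found by the root mean square (RMS) difference of centred log2 CPM, as a description. Tek was most like Gpr182 (RMS 0.0874), a receptor of sinusoidal endothelium, and Tnfrsf1a (0.0929). For Tie1 these were A930013F10Rik (0.0910) and Rapgef5 (0.0927), for Kdr Scaper (0.0538) and Zdhhc8 (0.0734), and for Flt4 Fkbp5 (0.0891) and Fmnl2 (0.0983). Flt1 was most like Adamts1 (0.165), a protease with antiangiogenic activity, and Vegfa was most like Creg1 (0.144) and Tfdp2 (0.171). Vegfb was nearest to Ccdc58 (0.0465) and Vegfc to Ppib (0.0469), both with a small range over the livers. The nearest gene to Angpt2, Ppp1r14a, was at 0.354, further than that of any other member, and Angpt1 was nearest to Coro2a (0.143).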

How the data were processed

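Livers of 2 sham, 2 intra-C and 2 intra-S mice were analysed. The authors aligned reads to mm10 with HISAT2 2.1.0 and counted uniquely aligned reads on exons with featureCounts (Subread 2.0.6, per the labels and the study's methods). The deposited raw counts are not normalized. The authors also deposited TPM values, calculated from these counts and gene lengths. The annotation and the strand setting are not given in the sources used here. Each column name matched a single liver. Here, counts were tested with edgeR 4.0.16 (R 4.3.3; TMM, filterByExpr with a count minimum of 10, 1 quasi-likelihood fit over 6 livers, Benjamini-Hochberg adjustment over 16370 genes), which was checked on simulated counts. Log2 CPM used a prior count of 2. Alternatives were DESeq2 1.42.0, limma 3.58.1 on log2(TPM + 1) and log2(TPM + 0.1), other filters, scalings and fits, a replicate block, and each liver left out. The members and the 24 gene lists were chosen with earlier results of these data known. Named are all members, up to 4 called genes per pathway list by fold change and 10 preset pathway genes, per marker list the 2 most abundant and called genes up to 3, and the 3 genes most like each member. Not every gene that this rule covers is described. Epcam was named after its values were seen. Motif matches were counted in RefSeq promoters with Python 3.11.15, and figures were drawn with matplotlib 3.10.9. Intervals from counts cover counting error only.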

Additional observations from a re-analysis of the deposited data

Results flagged for a closer look

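On TMM-scaled CPM, Angpt2 lay on opposite sides of sham in the tumor groups. Both intra-C livers (0.815 and 0.124 CPM) were below both sham livers (1.06 and 1.38 CPM), and both intra-S livers (1.92 and 1.57 CPM) were above them. The log2 fold change of intra-S against intra-C livers was 1.87 ± 0.80 (SE, n = 2 per group), and edgeR's test of that difference did not pass (adjusted p = 0.380), nor did either comparison with sham (adjusted p = 0.327 and 0.686). It was 3.78 without intra-C liver 1 and 1.08 without intra-C liver 2. In TPM the intra-S livers (0.956 and 0.835) overlapped the sham livers (0.670 and 0.871). Intra-C liver 2 held 4 counts of this gene.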

How the results depend on the processing

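Over 537 alternative values of the member fold changes, 462 kept their direction and their side of the threshold, 25 passed it newly, 33 no longer passed it and 17 reversed. Members called in intra-C against sham were 3 in the main analysis and 6 with only the 2 groups compared (30.5% of all genes, beside 7.30%). They were 4 with DESeq2 (13.5%), where Flt4 was added (DESeq2 adjusted p = 0.00488). They were 2 without a filter (6.26%), with upper-quartile factors (7.33%) or with DESeq2 size factors in edgeR (7.31%). They were 0 with library size without TMM, where the median of all genes moved to -0.25 (8.37%), or with limma on log2(TPM + 1) or log2(TPM + 0.1) (8.51% and 9.03%). In intra-S against sham they were 1 in the main analysis, 4 with DESeq2 (Flt1, Flt4, Tek and Tie1, 16.9% of all genes) and 2 without a filter (9.22%). They were 0 with only the 2 groups compared (2.48% of all genes, beside 10.7%) or limma on either TPM scale (13.7% and 13.9%). With each liver left out in turn they ranged from 0 to 7 in intra-C and 0 to 5 in intra-S against sham, and 0 to 4 between the tumor groups. With the replicate block they were 1, 1 and 0, and Kdr (adjusted p = 0.0687) and Tie1 (adjusted p = 0.0661) lost their calls. No label says what the replicate numbers mark. Deviations of same-numbered livers correlated at -0.03, 0.10 and 0.07 across 12680 genes, and a shared day or batch was not tested. Kdr in intra-S against sham reversed to -0.041 with library size, -0.066 with log2(TPM + 1) and -0.077 with log2(TPM + 0.1). On the latter scales Vegfc in intra-S against intra-C reversed to -0.046 and -0.068, and Vegfa in intra-S against sham to -0.0045 on the second. The cause of these reversals was not tested. With single livers left out, the ranges that crossed 0 were -0.53 to 0.29 for Angpt1 in intra-S against intra-C, -0.48 to 0.074 for Tie1 in intra-S against intra-C, -0.87 to 1.45 for Vegfa in intra-S against sham, -0.29 to 2.03 for Vegfa in intra-S against intra-C, -0.25 to 1.71 for Flt1 in intra-S against intra-C, -0.45 to 0.77 for Flt4 in intra-S against intra-C, -0.25 to 0.10 for Vegfb in intra-S against sham and -0.20 to 0.27 for Vegfc in intra-S against intra-C. Counts of 4 to 66 limit Angpt1 and Angpt2.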

Other observations

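Adamts1, a secreted protease that was chosen after its values were seen, shared the high level of intra-S liver 1. It was at 57.5 CPM in this liver and at 12.9 CPM in intra-S liver 2, beside 7.10 and 7.76 CPM in sham and 17.5 and 12.9 CPM in intra-C livers.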
